A study of Rhodotorula toruloides with 36 samples.

Results

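Native transcripts of strain GB2 were set against those of wild type (WT) after 18 h of growth of the oleaginous yeast Rhodotorula toruloides IFO0880. The comparison used 9 of the 36 RNA-sequencing libraries of the series, 3 of GB2 and 6 of WT, all sampled in exponential phase. Its members were the 8473 native transcripts left of 8490 after 17 named pathway genes of the study's supplementary list had been set aside, and 7355 of them had enough counts to be tested. GB2 carried 10 copies of a cassette with the bisabolene synthase gene BIS behind the native GAPDH promoter (P_GAPDH-BIS) and 6 copies of a cassette with BIS behind the adenine nucleotide translocase promoter (P_ANT-BIS), 16 in all. WT carried none. GB2 was built from strain BIS3, which has the 10 P_GAPDH-BIS copies, by a further transformation, and inserts of this kind land at random places in the genome. GB2 is therefore 1 clone, with 1 set of insertion sites and the history of its selection, and none of these can be told apart from the BIS cassettes themselves. BIS18 (1 copy), BIS14 (7 copies) and BIS3, with 3 libraries each at 18 h, shared the fit and are given beside named transcripts and some shares and medians. Per the labels the medium was synthetic defined (SD) medium with 2% glucose, whereas the study's text gives 10 g/L. The labels also list 6 WT libraries at each time, more than the study's text gives per strain.

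Bisabolene synthase from the grand fir Abies grandis turns farnesyl diphosphate (FPP) into the sesquiterpene α-bisabolene. In fungi FPP is made from acetyl-CoA by the mevalonate pathway, and it is also the precursor of sterols such as ergosterol, so a strong bisabolene synthase draws on a pool that the cell needs for its membranes. R. toruloides stores much of its carbon as lipid, which also starts from acetyl-CoA. The count table identifies native transcripts by number, and no gene name or function was at hand for those described here, so they are given by number, position and level. Positions are those of the count table, on scaffolds of the IFO0880 genome.

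The cassette genes followed the labels. BIS had 22626, 24523 and 24042 CPM (counts scaled by library size and TMM factor) in the 3 GB2 libraries, against 1.89 CPM at the lowest, 4.33 at the median and 5.70 at the highest in WT. Its share of all counts in GB2 was 1.96% (95% Wilson interval 1.94 to 1.98%), 2.13% (2.10 to 2.15%) and 2.03% (2.01 to 2.05%). The hygromycin resistance gene Hyg had 231, 183 and 227 counts in GB2 and 0 counts in each WT library, which leaves room for up to 3 counts there. Hyg was also at 0 in each BIS3 library, so at 18 h it was seen in GB2 and not in its parent. The nourseothricin resistance gene Nat had 4431, 5678 and 5219 CPM in GB2, against 0 to 1.26 CPM in WT.

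Library totals were 1387386 to 1965240 counts in GB2 and 1134992 to 2029181 counts in WT. Nothing states that the replicates came from separate cultures, so p-values measure the spread between these samples, which may be technical. Pairs of GB2 libraries differed by 1.49 to 2.35 times counting noise (chi-square per degree of freedom). In WT the libraries fell into replicates 1 to 3 and 4 to 6, with 1.14 to 2.29 times counting noise within these sets and 2.97 to 4.35 times between them. Neither the labels nor the headers say what sets them apart. CPM are relative to the library, so a gene's RNA per cell and its share of the cell's RNA cannot be told apart.

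Many native transcripts differed between GB2 and WT. Of all 7375 entries tested, 4006 (54.3%) passed an adjusted p of 0.05 by edgeR's quasi-likelihood test, 1943 higher (26.3%) and 2063 lower (28.0%). The number called was 3382 with all 36 libraries in the fit and 4613 with total counts alone. Among the 7355 native transcripts outside the named pathway genes, 1925 were higher in GB2, 2062 were lower and 3368 did not pass. Most changes were moderate, with a median log2 fold change of 0.73 among those higher and -0.84 among those lower. Changes of at least 2-fold were called for 603 higher and 815 lower members, where the background over all entries was 8.35% higher and 11.1% lower. At 8-fold or more, 29 members were higher and 61 were lower. In 3569 members (48.5%) the call went with groups that did not overlap, against a background of 48.7%.

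The balance of rises and falls depended on the scaling. TMM factors were 0.845 to 0.869 in GB2 and 1.06 to 1.12 in WT. With TMM the median log2 fold change of all entries was -0.05, and 48.5% of the calls were higher and 51.5% lower. With total counts alone the median moved to -0.37, a shift of -0.32, and 22.8% of the calls were higher and 77.2% lower. All values below are TMM-scaled and relative to that centre. With only WT replicates 1 to 3, 1709 entries were higher and 1804 lower. With only WT replicates 4 to 6, 1746 were higher and 1822 lower.

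**Figure D1:**
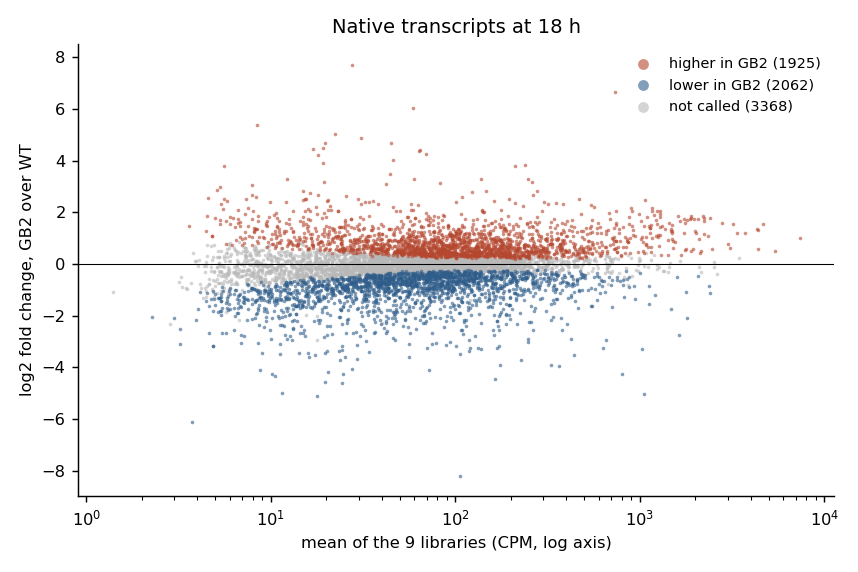
Log2 fold change of GB2 over WT (vertical) against the mean level of the 9 libraries in CPM (horizontal, log axis), with 1 point for each of 7355 native transcripts outside the named pathway genes. The 1925 higher and 2062 lower transcripts spread over the whole range of levels.

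With TMM, rises were more frequent among abundant transcripts and falls among scarce ones. The members were split by mean level over the 9 libraries into 4 bins of equal size. In the lowest bin (1.39 to 29.8 CPM) 16.7% were higher in GB2 and 30.6% lower. The next bins, going up in level, had 19.3% higher and 29.1% lower, then 27.3% higher and 28.6% lower. In the highest bin (131 to 7358 CPM) 41.4% were higher and 23.8% lower. The median log2 fold changes were -0.27, -0.11, -0.0089 and 0.16 from the lowest bin to the highest. The mean over these 9 libraries includes GB2, so a change itself moves a transcript between bins. Split instead by the mean of the 9 BIS18, BIS14 and BIS3 libraries, a choice made after seeing the data, 17.8% of the lowest bin were higher in GB2 and 29.3% lower, and 39.5% of the highest were higher and 25.4% lower. Scaled by total counts alone, 24.0% of the highest bin and 10.5% of the lowest were higher, while the shares that were lower, 43.2% and 47.4%, lay close to each other. For calls at any fold, length showed no such gradient, with 25.2 to 26.8% higher and 25.3 to 31.1% lower over 4 bins of length. At 2-fold or more the longest bin had the fewest calls, 114 higher and 134 lower. The other bins of length had 144 to 178 higher and 206 to 243 lower.

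The most abundant native transcripts took a larger share of the RNA in GB2. The 10 most abundant held 5.85% ± 0.253 of all counts in the GB2 libraries (SD, n = 3), compared with 3.74% ± 0.247 in those of WT (SD, n = 6). The top 100 held 25.1% ± 1.02 in GB2 (range 24.0 to 26.0%) and 17.6% ± 0.392 in WT (range 16.9 to 18.1%). The GB2 and WT libraries did not overlap in either share. A larger share was not particular to GB2, since the top 100 held 21.8% on average in BIS3 (range 20.6 to 23.3%) and 19.4% in BIS14. In BIS18 they held 17.3%. Of the 100 most abundant in WT, 53 were higher in GB2 and 20 lower, with a median log2 fold change of 0.43. The background was 26.3% higher and 28.0% lower over all entries, and 41.4% and 23.8% in the highest of the 4 bins of level. The lists of the 100 most abundant in GB2 and in WT had 59 transcripts in common, 59% of each.

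The largest rises, falls, gains and losses named below were picked from called transcripts whose GB2 and WT libraries did not overlap. Their lack of overlap was thus set by the choice. The largest rise at a high level was that of transcript 10740 (scaffold 13, 452902 to 454246, plus strand). It had 2142, 2172 and 2124 CPM in GB2, against 18.8 CPM at the lowest, 19.8 at the median and 29.2 at the highest in WT. The 3 GB2 libraries lay close together and far above each WT library, a log2 fold change of 6.65 (SE 0.15, adjusted p = 1.73e-18, edgeR). Per kilobase of its length it ranked 55 among the native transcripts in GB2 and 5652 in WT. Its mean was 137 CPM in BIS18, 512 CPM in BIS14 and 1370 CPM in BIS3, and GB2 was above BIS3 by 0.65 on the log2 scale (adjusted p = 0.00258). At 48 h it still had a mean of 1515 CPM in GB2 and 37.5 CPM in WT.

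Transcripts 14041 and 14040 are neighbours on the plus strand of scaffold 5 (342333 to 343433, and 340231 to 341133), and both rose. Transcript 14041 had 97.4, 63.2 and 85.7 CPM in GB2, and at most 2 counts in any WT library (3 counts over all 6). Over the summed libraries GB2 exceeded WT by a ratio of 272, with a 95% interval of 92.3 to 1325 that covers counting error only. Transcript 14040 had 180, 171 and 173 CPM in GB2, against 4.88 CPM at the lowest, 8.06 at the median and 11.6 at the highest in WT, a log2 fold change of 4.38 (SE 0.23, adjusted p = 1.28e-11). Neither showed any overlap between the groups. In BIS3 their means were 7.57 CPM for 14041 and 46.6 CPM for 14040, and at 48 h all their means in GB2 and WT were under 5 CPM.

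Transcript 14751 (scaffold 6, 365616 to 367386, minus strand) had 227, 98.2 and 194 CPM in GB2, against 1.63 CPM at the lowest, 2.40 at the median and 3.67 at the highest in WT. GB2 replicate 2 was the lowest of the 3 and was still far above each WT library (log2 fold change 6.04, SE 0.33, adjusted p = 2.34e-11). It was also above BIS3 by 4.15 (adjusted p = 3.97e-07), the largest such difference among the 12 largest rises. Transcript 16377 (scaffold 8, 1287895 to 1288692, minus strand) had 30.5, 19.1 and 23.8 CPM in GB2 and at most 2 counts in any WT library, 5 in all. Its log2 fold change was 5.38 (SE 0.53, adjusted p = 5.51e-08).

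Transcript 16345 (scaffold 8, 1213713 to 1217281, minus strand) had a different pattern across the strains. It had 54.5, 55.7 and 48.3 CPM in GB2, against 0.631 CPM at the lowest, 2.40 at the median and 4.07 at the highest in WT (log2 fold change 4.49, SE 0.27, adjusted p = 8.21e-11). Each GB2 library was above each WT library. Its means of 32.1 CPM in BIS18, 35.6 in BIS14 and 34.9 in BIS3 lay close together, and the difference between GB2 and BIS3 did not pass (0.59, adjusted p = 0.0556). At 48 h its means were 57.7 CPM in GB2 and 2.16 CPM in WT. It was the only one of the 12 largest rises whose difference from WT did not pass the test of a change between 18 h and 48 h (0.51, adjusted p = 0.428).

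Of the other 6 largest rises, 13177 (scaffold 3, 759353 to 763599, plus strand) and 10047 (scaffold 11, 571932 to 573047, plus strand) had the highest levels. Transcript 13177 had 226, 126 and 178 CPM in GB2, against 3.15 CPM at the lowest, 7.85 at the median and 13.8 at the highest in WT (log2 fold change 4.41, SE 0.42, adjusted p = 3.35e-08). Transcript 10047 had 131, 116 and 129 CPM in GB2, against 0.813 CPM at the lowest, 4.82 at the median and 6.55 at the highest in WT (4.68, SE 0.25, adjusted p = 2.02e-11). In neither did the groups overlap. Transcripts 13777 (4.87), 11451 (5.02), 9265 (4.69) and 11261 (4.43) had 42.2 to 97.4 CPM in GB2 and 0.458 to 5.05 CPM in WT.

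Some of these positions are shared with other listed transcripts, and the library kit does not mark strand. Transcript 11451 shares 23 bases with 11452 on the other strand, and 9265 shares 211 bases with 9264 on the other strand. Both partners were also higher in GB2, by 1.75 (adjusted p = 0.00117) and 1.22 (adjusted p = 0.00945) on the log2 scale. Their mean levels in GB2, 15.3 CPM for 11452 and 13.1 CPM for 9264, were below those of the named transcripts. Transcript 11261 shares 124 bases with 11260, which had too few counts to be tested, and 12 bases with 11262 on the other strand, which was lower in GB2 (-0.84, adjusted p = 5.37e-06). The part of shared reads in these values was not tested.

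The largest fall was that of transcript 16113 (scaffold 8, 691026 to 692859, minus strand). It had 0, 0 and 1.36 CPM in GB2, which is 2 counts in all, against 105 CPM at the lowest, 160 at the median and 198 at the highest in WT. Its 1501 counts in WT exceeded those in GB2 by a ratio of 339 after scaling, with a counting interval of 93.5 to 2798. Its means were 124 CPM in BIS18, 81.6 in BIS14 and 23.3 in BIS3. At 48 h its mean was 21.2 CPM in GB2 and 26.3 CPM in WT, a difference that did not pass (-0.37, adjusted p = 0.528).

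Transcript 11392 (scaffold 15, 478182 to 479265, plus strand) was one of the most abundant in WT. It had 44.0, 58.2 and 40.8 CPM in GB2, against 1066 CPM at the lowest, 1457 at the median and 2022 at the highest in WT. No GB2 library came near the lowest WT library, and the log2 fold change was -5.03 (SE 0.34, adjusted p = 4.46e-10). Per kilobase it ranked 2691 in GB2 and 11 in WT. Its means of 1431 CPM in BIS18, 640 in BIS14 and 110 in BIS3 lay between those of WT and GB2. At 48 h the direction was the opposite, with 956 CPM ± 275 in GB2 (SD, n = 3), compared with 265 CPM ± 102 for WT (SD, n = 6), a log2 fold change of 1.85 (adjusted p = 1.75e-04, edgeR).

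Transcript 14902 (scaffold 6, 736897 to 739297, plus strand) was far lower in GB2 than in WT and also than in BIS3. It had 25.8, 106 and 55.8 CPM in GB2, against 1066 CPM at the lowest, 1143 at the median and 1310 at the highest in WT (log2 fold change -4.25, SE 0.44, adjusted p = 9.92e-08). Replicate 2 was the highest of the GB2 libraries, and the groups stood well apart. In BIS3 it ranged over 950 to 3011 CPM, and GB2 was below BIS3 by 5.04 on the log2 scale (-5.04, adjusted p = 5.71e-07). Transcript 12545 (scaffold 2, 1236078 to 1237368, minus strand) had the other pattern. It had 2.35, 0.832 and 0.680 CPM in GB2, against 26.6 CPM at the lowest, 36.6 at the median and 46.4 at the highest in WT (-4.60, SE 0.47, adjusted p = 1.03e-07), and 0 to 0.882 CPM in BIS3.

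Transcript 14169 (scaffold 5, 663280 to 665489, plus strand) had 7.62, 8.32 and 17 CPM in GB2, against 228 CPM at the lowest, 238 at the median and 250 at the highest in WT. The WT libraries were close to each other and far above GB2 (log2 fold change -4.44, SE 0.19, adjusted p = 3.73e-13). Its means in between were 190 CPM in BIS18, 100 in BIS14 and 43.3 in BIS3. It remained lower in GB2 at 48 h, by 1.09 on the log2 scale (-1.09, adjusted p = 0.00204). Transcripts 13873 (scaffold 4, log2 fold change -4.27) and 12517 (scaffold 2, -4.17) had 0 to 3.33 CPM in GB2 and 18.2 to 54.4 CPM in WT. The other 5 of the 12 largest falls were close to absent in GB2 and are given among the nearly silent transcripts.

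**Figure D2:**
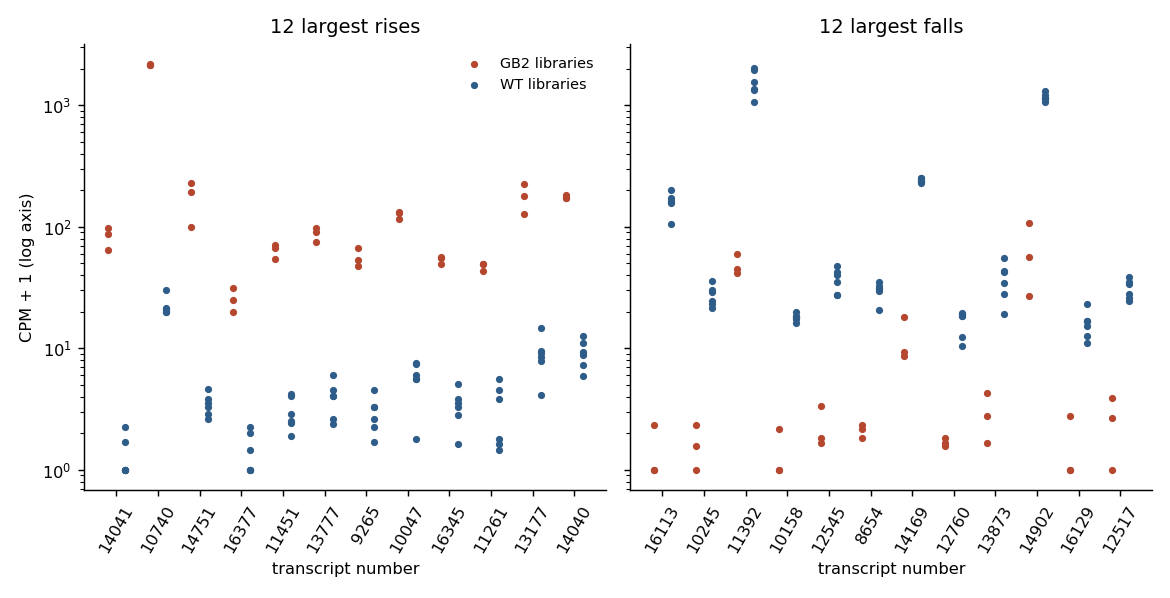
Level of each library as CPM plus a pseudocount of 1 (vertical, log axis) for the 12 transcripts with the largest rise (left) and the 12 with the largest fall (right), each with 3 GB2 and 6 WT points. The 24 were chosen among transcripts whose groups do not overlap, and 10740 reaches 2124 to 2172 CPM in GB2.

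Across the other strains the 12 largest rises and falls were mostly already changed in BIS3. Of the 12 rises, 12 were called higher than WT in BIS3, 5 in BIS14 and 2 in BIS18, and 10 were called higher in GB2 than in BIS3. Of the 12 falls, 10 were called lower than WT in BIS3 and 6 in BIS14, their log2 differences in BIS18 were -0.68 to 0.74, and 9 were called lower in GB2 than in BIS3. These comparisons share the WT or the GB2 libraries by which the 24 were chosen. Over all 7375 entries, the share higher than WT was 0.475% in BIS18, 10.5% in BIS14 and 17.3% in BIS3, and the share lower was 0.0542%, 7.02% and 15.3%. Of the same entries, 1082 were higher in GB2 than in BIS3 (14.7%) and 1066 lower (14.5%). Without BIS3 replicate 3 the number lower was 694.

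In absolute terms the largest gains were in transcripts that were already abundant. Transcript 12821 (scaffold 2, 1912049 to 1914687, minus strand) had 10883, 10122 and 12265 CPM in GB2, against 4527 CPM at the lowest, 5399 at the median and 6334 at the highest in WT, a log2 fold change of 1.01 (SE 0.13, adjusted p = 1.10e-06). Its mean rank per kilobase was 3 in GB2 and 4 in WT. Transcript 11620 (scaffold 16, 373069 to 376914, plus strand) had 8126, 8392 and 8192 CPM in GB2, against 2584 CPM at the lowest, 2860 at the median and 3062 at the highest in WT (1.54, SE 0.18, adjusted p = 4.53e-07). In both, each GB2 library was above each WT library. Transcript 11620 shares 609 bases with 11619 on the same strand, which was lower in GB2 (-0.36, adjusted p = 0.0145) and had a mean of 209 CPM there.

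The other 4 gains were in 10111 (scaffold 11), 14642 (scaffold 6), 8519 (scaffold 1) and 13738 (scaffold 4). Transcript 8519 had 5714, 5313 and 6044 CPM in GB2, against 1830 CPM at the lowest, 1980 at the median and 2159 at the highest in WT (log2 fold change 1.53, SE 0.14, adjusted p = 1.83e-08). Transcript 13738 had 6066, 5575 and 6244 CPM in GB2, against 2251 CPM at the lowest, 2592 at the median and 2921 at the highest in WT (1.21, SE 0.12, adjusted p = 9.41e-08). It ranked 2 per kilobase in GB2 and 6 in WT. For 10111 and 14642 the log2 fold changes were 1.35 and 1.31. All 6 gains were called higher than WT in BIS3 (background 17.3%, over all levels). Of these, 2 (14642 and 8519) were called higher in GB2 than in BIS3 (background 14.7%, over all levels). Both comparisons reuse WT or GB2 libraries by which the 6 were chosen.

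Among the 6 largest losses, transcript 12591 (scaffold 2, 1346768 to 1349335, plus strand) lost the most. It had 308, 378 and 337 CPM in GB2, against 1945 CPM at the lowest, 2289 at the median and 2599 at the highest in WT (log2 fold change -2.75, SE 0.28, adjusted p = 9.11e-08). Transcript 9001 (scaffold 1, 1200653 to 1201930, minus strand) had 493, 682 and 530 CPM in GB2, against 2083 CPM at the lowest, 2428 at the median and 2598 at the highest in WT (-2.08, SE 0.18, adjusted p = 1.15e-08). Per kilobase it ranked 235 in GB2 and 7 in WT. Transcript 12953 (scaffold 3, 230802 to 232972, plus strand) had 1222, 1505 and 1309 CPM in GB2, against 2479 CPM at the lowest, 2853 at the median and 3315 at the highest in WT (-1.12, SE 0.15, adjusted p = 4.00e-06). No GB2 library reached a WT library in these 3.

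Transcripts 12181 and 12602, both on the plus strand of scaffold 2 (345192 to 348217, and 1370087 to 1372374), varied more among the GB2 libraries. Transcript 12181 had 401, 856 and 498 CPM in GB2, against 1860 CPM at the lowest, 1937 at the median and 2009 at the highest in WT (log2 fold change -1.73, SE 0.23, adjusted p = 2.77e-06). Transcript 12602 had 83.9, 250 and 122 CPM in GB2, against 1389 CPM at the lowest, 1491 at the median and 1508 at the highest in WT (-3.29, SE 0.36, adjusted p = 2.21e-07). GB2 replicate 2 was the highest of the 3 in both, as in 14902. All 6 losses, 11392 among them, were called lower in GB2 than in BIS3 (log2 differences of -2.68 to -1.12, background 14.5%, over all levels). Lower than WT in BIS3 were 3 (background 15.3%, over all levels). Both comparisons reuse GB2 or WT libraries by which the 6 were chosen.

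A few transcripts were close to silent in one of the strains. Such a transcript had at most 3 counts in every library of one group and a mean of at least 10 CPM in the other. There were 14, 3 nearly silent in WT and 11 nearly silent in GB2. The limit had to hold in 6 libraries for WT and in 3 for GB2, so it was easier to meet in GB2. The 3 in WT were 14041, 16377 and 10414 (scaffold 12, 512312 to 513026, plus strand), and 10414 had 17.6, 11.6 and 8.84 CPM in GB2 against 0.712 to 2.44 CPM in WT (log2 fold change 2.99, SE 0.53, adjusted p = 9.03e-05). With a limit of 5 counts there were 10 in WT and 30 in GB2, and with a limit of 1 count there were 0 in WT and 1 in GB2. The single one was 12760.

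The 11 nearly silent in GB2 were 16113, 10245, 10158, 8654, 12760, 16129, 10404, 15134, 8531, 10136 and 16743. After 16113, the highest level in WT was that of 8654 (scaffold 1, 392629 to 393927, minus strand), with 1.17, 0.832 and 1.36 CPM in GB2, against 19.5 CPM at the lowest, 29.9 at the median and 34.1 at the highest in WT (log2 fold change -4.57, SE 0.67, adjusted p = 9.91e-06). Transcript 10245 (scaffold 12, 111051 to 112240, minus strand) had 3 counts in all in GB2 and 253 in WT, a WT to GB2 ratio of 38.0 after scaling (counting interval 12.9 to 186). For 10158 (scaffold 11, 836200 to 837347, minus strand) it was 2 counts in GB2 and 164 in WT, a ratio of 37.0 (10.1 to 308).

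For 12760, 16129 and 15134, each with 3 counts in GB2, the ratios of WT to GB2 were 23.0 (7.72 to 113), 20.7 (6.95 to 102) and 19.2 (6.44 to 94.6). With 5 to 8 counts in all in GB2, the log2 fold changes of 10404, 8531, 10136 and 16743 were -3.43, -3.43, -3.07 and -2.92. Several were low in BIS3 as well. Transcript 10158 had at most 1 count in any BIS3 library, 12760 had 1 to 3 and 16743 had 1 to 3. Others were not, and 8531, 8654 and 10136 had 8 to 19, 7 to 29 and 9 to 16 counts in the BIS3 libraries.

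At 48 h 9 of these 11 had at least 10 counts in every GB2 library. Transcript 10245 had 111 to 291 counts in the GB2 libraries of 48 h and 70 to 627 in WT, and 12760 had 121 to 228 in GB2 and 37 to 204 in WT. Transcript 16129 had 142 to 165 counts in GB2 and 111 to 343 in WT, and 15134 had 116 to 150 in GB2 and 5 to 107 in WT. These counts are not scaled by library size. In the edgeR fit of 48 h, 10245 (log2 fold change -0.98, adjusted p = 0.0182) and 16129 (-0.70, adjusted p = 0.0123) were still called lower in GB2. Transcript 15134 was called higher (1.07, adjusted p = 0.00424), and 12760 did not pass (0.42, adjusted p = 0.313). Transcripts 8531, at 3 to 8 counts in GB2 and 0 to 20 in WT, and 8654, at 7 to 9 in GB2 and 1 to 12 in WT, stayed low in both strains.

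Falls of at least 2-fold also came in runs of neighbouring transcripts. A run was at least 4 tested transcripts next to each other on a scaffold, all called the same way at 2-fold or more. There were 8 such runs with 34 members, all 8 lower in GB2 and 0 higher. Entries that overlap counted as separate members. On scaffold 11, 10114 shares 416 bases with 10115, and on scaffold 12, 10233 shares 165 bases with 10234, each on the same strand. Both runs have 4 members and would miss the minimum if such a pair counted once. The part of shared reads in these runs was not tested. In all 34 members the GB2 libraries lay below the WT libraries, with log2 fold changes of -3.93 to -1.01 (median -1.57). Of the 7355 native transcripts tested outside the pathway genes, 24.7% were called lower without overlap. The rule for a run already requires a call at 2-fold or more in these same libraries, which favours such separation. The background for a call of at least 2-fold lower was 11.1% of all entries, and neighbours are not independent. Other settings gave 6 to 8 lower runs, apart from total counts alone, which gave 20. Runs that rose numbered 0 to 3 under these settings, with 3 in the fit of all 36 libraries. At any called fold there were 119 runs, 56 higher and 63 lower.

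Of the 2 runs with 5 members, the one with the larger median change (-2.22, against -1.69) lay on scaffold 7 (1212861 to 1220341, 7.48 kb) and held 15742, 15743, 15744, 15745 and 15746, with 3 members on the minus strand followed by 2 on the plus strand. Transcript 15744 was the most abundant, with 46.9, 46.6 and 53.7 CPM in GB2, against 193 CPM at the lowest, 229 at the median and 275 at the highest in WT (log2 fold change -2.22, SE 0.29, adjusted p = 1.85e-06). Transcript 15743 had 1.76, 7.49 and 2.72 CPM in GB2, against 32.6 CPM at the lowest, 33.4 at the median and 39.0 at the highest in WT (-3.18, SE 0.37, adjusted p = 5.94e-07). The 2 members on the plus strand had log2 fold changes of -2.81 (15745) and -1.82 (15746). The first, 15742, was the weakest, at 4.69, 4.16 and 2.72 CPM in GB2 and 4.88 to 9.46 CPM in WT (-1.01, SE 0.32, adjusted p = 0.0109). Its call was lost, among other settings, with WT replicates 1 to 3 only, with all 36 libraries in the fit, and without GB2 replicate 3 (adjusted p = 0.0712, 0.108 and 0.0832), which leaves 4 members.

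Another run of 5 lay on scaffold 1 (1544667 to 1555102), where the fall grew from -1.06 at 9138 to -3.59 at 9142. At 9138 the values were 106, 109 and 107 CPM in GB2 and 184 to 266 CPM in WT, and at 9142 they were 1.17, 3.33 and 4.76 CPM in GB2 and 22.8 to 47.2 CPM in WT. The run of 4 on scaffold 11 (734595 to 743469, ends 10114 and 10117) had a median of -2.39, and 10111, 1 of the 6 largest gains, is the third tested neighbour before it. On scaffold 9 (138859 to 147706, ends 16476 and 16479) the median was -2.01, with the 2 ends at -2.22 and -1.11.

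The other 4 runs, each with 4 members, were weaker, with medians of -1.35 to -1.33. They lay on scaffold 12 (80801 to 89814, ends 10233 and 10236), scaffold 2 (812217 to 821511, ends 12376 and 12380), scaffold 3 (1349859 to 1362545, ends 13429 and 13432) and scaffold 5 (1257714 to 1268880, ends 14424 and 14429). End 13432 lost its call without GB2 replicate 1 (-0.95, adjusted p = 0.0561). Of the 48 tested neighbours, 3 on each side of each run, 12 were higher in GB2, 12 lower and 24 not called. Over all entries 26.3% were higher and 28.0% lower, shares close to these. By the rule for a run, the tested transcript next to it could not be called 2-fold lower. On scaffold 5 the neighbour of 14424 is 14423, which shares 41 bases with it and was higher in GB2 (mean 3264 CPM in GB2 and 1344 CPM in WT, log2 fold change 1.28, adjusted p = 1.56e-08).

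**Figure D3:**
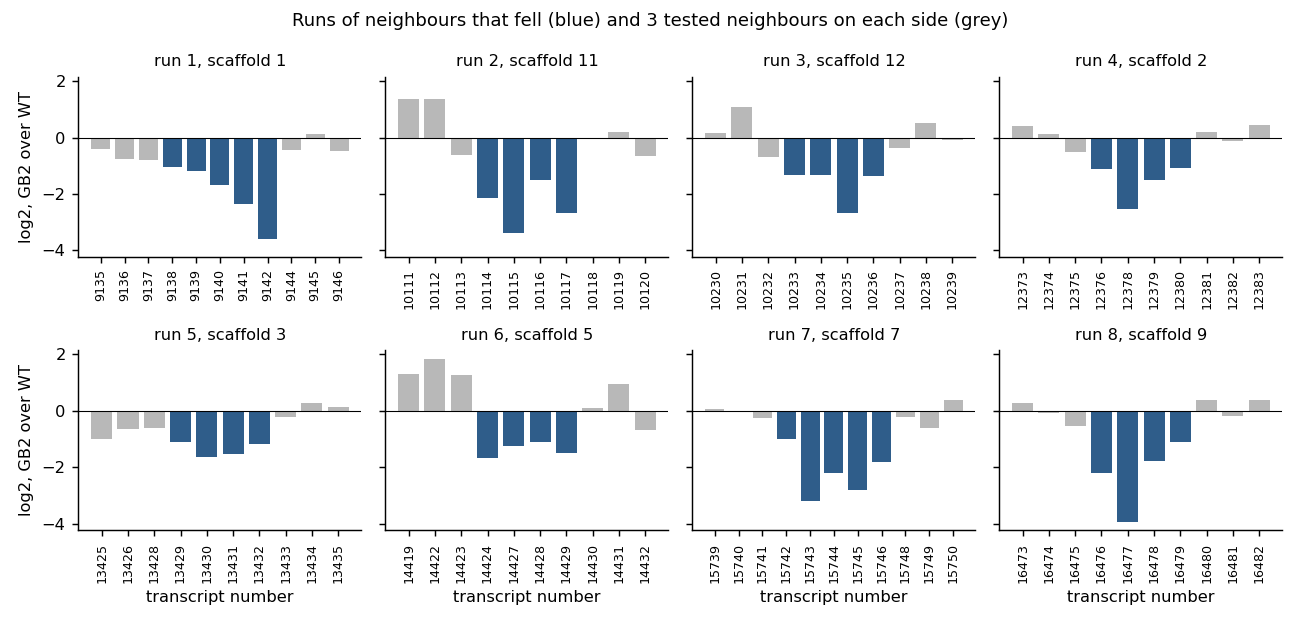
Log2 fold change of GB2 over WT at 18 h (vertical) for the members of the 8 runs (blue) and for 3 tested neighbours on each side (grey), in the order of their start positions, labelled by transcript number. All 34 members are at -1.01 or lower, since a run requires falls of at least 2-fold, and the grey bars lie on both sides of 0.

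Median changes of the runs were smaller in the other strains, at -1.16 to -0.34 in BIS3, -0.76 to 0.13 in BIS14 and -0.25 to 0.13 in BIS18. Since the runs were chosen by their fall in GB2 against these WT libraries, the choice favours smaller changes in the other strains. At 48 h, by a fit of separate libraries, 4 of the 34 members were called lower in GB2 and 1 higher, with backgrounds of 8.66% lower and 11.0% higher.

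Changes were spread over the genome, and scaffold 10 stood apart. Of its 334 tested members 166 (49.7%) were higher in GB2 and 46 (13.8%) lower, with a median log2 fold change of 0.34. The other 17 scaffolds with at least 100 tested members had 19.7 to 32.5% higher and 24.2 to 32.9% lower, with medians of -0.16 to 0.005. The rise was seen along the whole scaffold, with medians of 0.34, 0.17, 0.39 and 0.51 in 4 consecutive stretches with equal numbers of transcripts. In BIS3 the median of scaffold 10 was -0.075, within the range of the other scaffolds (-0.11 to 0.10). At 48 h, in other libraries, it was 0.41 in GB2, with 132 of 333 members of scaffold 10 called higher and 0 lower (edgeR). Over all entries at 48 h 11.0% were higher and 8.66% lower. The number of copies of this scaffold was not tested. Without scaffold 10, 1759 members were higher and 2016 lower.

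At the small end, scaffolds 20, 25 and 29 held 8 tested members (median log2 fold change 1.53). Of these, 7 were higher in GB2, where 26.3% of all entries were. The eighth did not pass. Median levels were low, at 14.4 CPM on scaffold 20 and 14.8 CPM on scaffold 29, and the 1 member of scaffold 25 had 27.1 CPM. At 48 h 4 of the 8 were called higher, against 11.0% of all entries.

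**Figure D4:**
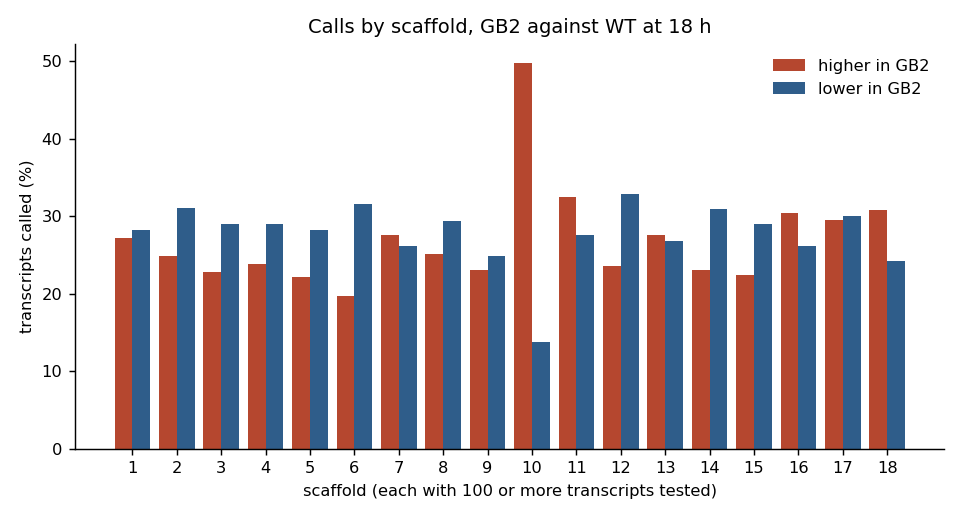
Share of tested native transcripts called higher (red) and lower (blue) in GB2 at 18 h, in percent, for the 18 scaffolds with at least 100 tested transcripts. On scaffold 10 it is 49.7% higher and 13.8% lower, and on each of the others 19.7 to 32.5% higher.

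The changes at 18 h were set beside those at 48 h, which come from other libraries of the same strains. By the study's text the 48 h samples were in stationary phase, so hours of growth and growth phase cannot be told apart. Of the 603 members at least 2-fold higher at 18 h, 593 were tested at 48 h, and 217 (36.6%) were higher there and 15 (2.53%) lower. Of the 815 at least 2-fold lower, 810 were tested at 48 h, and 107 (13.2%) were lower there and 73 (9.01%) higher. The background at 48 h was 868 of 7917 higher (11.0%) and 686 lower (8.66%). WT replicate 2 of 48 h weighed on these counts. Without it, 345 (58.1% of the 594 then tested) of the earlier rises were higher and 251 (31.0%) of the earlier falls lower, against backgrounds of 22.2% and 20.5%. In the opposite direction, 43 (7.24%) of the earlier rises were lower and 148 (18.3%) of the earlier falls higher. Leaving out GB2 replicate 1, 2 or 3 of 48 h brought all calls down to 854, 868 or 751, against 1554.

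The test of a change between the times asks whether the GB2 difference at 48 h is another than at 18 h, and it passed upward for 1125 entries (14.3% of 7890) and downward for 1178 (14.9%). Without GB2 replicate 1 of 18 h, the number downward was 776. The named transcripts were chosen by their difference at 18 h and the test uses these 18 h libraries again, so the choice favours a movement toward 0, and their counts are a description. Of the 12 largest rises, 11 passed downward, and of the 12 largest falls, 11 passed upward. The exceptions were 16345 among the rises and 12545 among the falls, and 12545 was close to silent in both strains at 48 h (0.311 CPM in GB2 and 1.94 CPM in WT on average). The 6 largest losses all passed upward, and 4 of them were called higher in GB2 at 48 h. Of the 6 largest gains, 1 (8519) passed downward, and 5 were still called higher at 48 h.

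**Figure D5:**
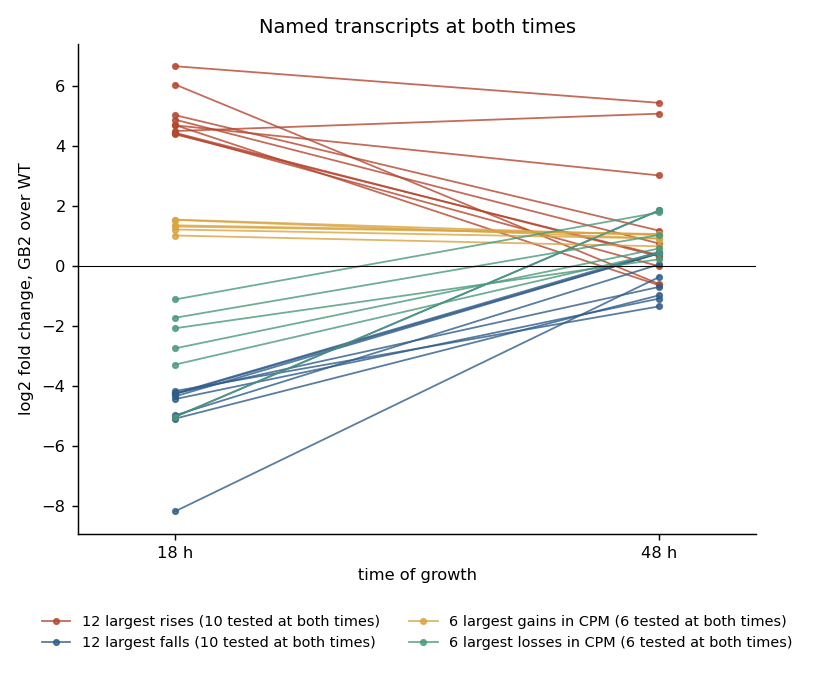
Log2 fold change of GB2 over WT at 18 h and 48 h for the 12 largest rises, 12 largest falls, 6 largest gains and 6 largest losses in CPM, where tested at both times (10, 10, 6 and 6), each transcript as a line. Of the rises and falls, all but 10740, 16345, 10047 and 11392 lie between -1.35 and 1.17 at 48 h. Transcripts 10740 and 16345 are at 5.43 and 5.07 there, and 11392 is at -5.03 at 18 h and at 1.85 at 48 h.

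The 17 named pathway genes give a measure of size. They were linked to transcripts by a fixed difference between protein and transcript numbers, which an earlier analysis of these data had picked by its match to published fold changes, so their values are not independent of those. In the fit used here, 15 of the 17 were higher in GB2 and 1 (mevalonate kinase) lower, against 26.3% and 28.0% of all entries. The study's list already gives fold changes of these genes from the same data, so these counts are a description and no test. Phosphomevalonate kinase did not pass (0.10, adjusted p = 0.534, edgeR). The 17 had a median log2 fold change of 1.23. ERG13 (HMG-CoA synthase) was the highest of them at 3.41 (SE 0.20, adjusted p = 5.66e-11), and 20 other native transcripts had a larger log2 fold change. Of the rest, 62 exceeded ERG7 (lanosterol synthase, 2.38), 77 exceeded ERG20 (farnesyl diphosphate synthase, 2.20) and 116 exceeded ERG10 (acetyl-CoA acetyltransferase, 1.92).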

How the data were processed

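Poly(A) RNA of R. toruloides was sequenced from TruSeq v2 libraries, a kit that does not mark strand. For the counts, the authors mapped reads with HISAT2 and used featureCounts. The deposited values are raw counts per transcript of 8493 entries, not normalized. Versions, the strand setting and the treatment of reads with several matches are not given in the sources used here. The listed length is the genomic span.

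The 18 libraries of 18 h were fitted together with edgeR 4.0.16 in R 4.3.3 (TMM, filterByExpr, quasi-likelihood F test, Benjamini-Hochberg adjustment over all entries tested, threshold 0.05). The 18 libraries of 48 h had a fit of their own, and a fit of all 36 tested the change between times. DESeq2 1.42.0 was an alternative, and the fits were tested on simulated data. CPM use tested counts and TMM factors, and ranks are per kilobase. Figures used matplotlib 3.10.9 with Python 3.11.15. Intervals (95%) and the floor of 3 counts cover counting error only, since reads without molecular identifiers are not independent molecules.

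Named were the 12 largest rises and 12 largest falls among called transcripts whose mean reached 10 CPM in either group and whose groups did not overlap, the 6 largest gains and 6 largest losses in CPM, all nearly silent transcripts, the members of the longest run of neighbours in each direction (none rose) and the ends of the other runs, 60 in all. Overlapping partners, neighbours and pathway genes were named after their values were seen. The members, lists and rules were chosen with earlier results of these data known. The genome and gene names of this strain were not used here.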

Additional observations from a re-analysis of the deposited data

Results flagged for a closer look

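For 46 of the 63 named entries the difference between GB2 and WT was another at 48 h than at 18 h, by the test in one edgeR fit of all 36 libraries. The values below are log2 changes of that difference, 48 h against 18 h. Over all 7890 entries tested, 14.3% passed upward and 14.9% downward. The named entries were chosen by their difference at 18 h, and the test uses those libraries again, so the choice favours a movement toward 0. Among the transcripts higher in GB2 at 18 h, 13 moved downward. They were 14041 (-7.90), 14751 (-6.71), 9265 (-5.41), 13177 (-4.50), 16377 (-4.47), 11261 (-4.18), 13777 (-4.18), 14040 (-4.09), 11451 (-3.91), 10414 (-3.53), 10047 (-1.73), 10740 (-1.24) and 8519 (-0.67). Among those lower in GB2 at 18 h, 33 moved upward. The largest of these were 16113 (7.82), 11392 (6.82), 15134 (5.13), 10158 (5.04), 8654 (4.98), 12760 (4.75), 14902 (4.66), 13873 (4.64) and 10245 (4.09). Between 3 and 4 lay 10404 (3.86), 12602 (3.67), 16129 (3.54), 8531 (3.42), 14169 (3.30) and 12591 (3.28). Between 2 and 3 lay 10136 (2.85), 12953 (2.85), 12517 (2.79), 10117 (2.74), 15745 (2.73), 16743 (2.72), 12181 (2.71), 9142 (2.51), 15744 (2.51), 15743 (2.32) and 9001 (2.25). The rest were 16476 (1.88), 10114 (1.65), 10236 (1.51), 12376 (1.43), 14424 (1.24), 9138 (0.95) and 10233 (0.70).

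In 4 of the 63 named entries 1 of the 6 WT libraries of 18 h stood apart from the others by Dixon's criterion, and chance gives about 1 in 20. WT replicate 5 was high for 10740 (29.2 CPM) and for 14429 (54.9 CPM), and WT replicate 1 was low for 10047 (0.813 CPM) and high for 15743 (39.0 CPM).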

How the results depend on the processing

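Without each library in turn, GB2 against WT at 18 h gave 3434 to 3943 calls (1715 to 1917 higher, 1713 to 2026 lower, and at 2-fold 608 to 633 higher and 774 to 824 lower). The 13 other settings gave 3382 to 4613 calls. Apart from total counts, they gave 1685 to 2199 higher and 1607 to 2233 lower, and at 2-fold 563 to 707 higher and 747 to 870 lower. Total counts alone gave 1051 higher and 3562 lower, and at 2-fold 361 higher and 1392 lower. It also moved the downward changes between times to 756, and the 48 h calls to 2344 (499 higher and 1845 lower). Without each library in turn, GB2 against BIS3 gave 1480 to 2351 calls (786 to 1255 higher, 694 to 1096 lower), the change between times 1775 to 3162 (942 to 1549 upward, 776 to 1613 downward), and GB2 against WT at 48 h 751 to 3382 (464 to 1756 higher, 287 to 1626 lower). The alternatives at 48 h, the counts without scaffold 10, the split by the level in other strains and the runs under other fits were chosen after seeing the data.

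Nearly silent transcripts numbered 14 at a floor of 3 counts, 1 at a floor of 1 and 40 at a floor of 5. Runs numbered 8, and 119 at any called fold, 20 with total counts and 6 to 9 without each library. For the 60 named native transcripts, 1250 of 1255 log2 fold changes under other settings kept direction and call, and 0 reversed. The 5 that lost the call were 4 of 15742 and 1 of 13432.

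The replicate numbers share only a number, since same-numbered GB2 and WT libraries correlated at -0.0493, 0.0161 and 0.0335 in their deviations from the group means, and not every library correlated best with its own number. With the replicate block the counts were 3438 for GB2 against WT at 18 h (1685 higher and 1753 lower), 1924 for GB2 against BIS3 and 2289 for the change between times. Of the named transcripts, 15742 lost its call with the block (-0.86, adjusted p = 0.0989).

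At 1134992 to 2029181 counts per library, levels under about 3 counts cannot be told from 0, which limits the nearly silent transcripts most.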
